A study of Rattus norvegicus with 10 samples.

Results

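The genes of the ATP-binding cassette (ABC) transporter family were followed in the renal cortex of PCK rats. The members are the protein-coding genes whose symbol is *Abc* followed by a subfamily letter from a to g and a number, and the gene table lists 48 of them among 32545 genes. The PCK rat carries a spontaneous mutation in *Pkhd1* and is a model of autosomal recessive polycystic kidney disease (ARPKD), with cysts that arise mainly from the collecting duct. Every rat of both groups carries the mutation, so the groups, 5 males and 5 females with 1 RNA-seq library per rat, differ in sex alone among the listed factors. No treatment is listed. The rats came from 2 litters, a factor not used here. Their age is given as 10 to 12 weeks in the methods and 12 to 14 weeks in the labels, which name the tissue as kidney. The membership rule uses symbols and no expression value.

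ABC proteins bind and split ATP, and most use that energy to carry a substrate across a membrane. Members of the B, C and G subfamilies at the proximal tubule membrane carry drugs, urate, cyclic nucleotides and conjugated organic anions. A-subfamily members and *Abcg1* move sterols and phospholipids, other B and D members serve mitochondria, lysosomes and peroxisomes, the sulfonylurea receptors gate potassium channels, and the E and F proteins act on ribosomes without crossing a membrane.

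Values are FPKM, reads scaled by gene length and by a scale for each library, so levels can be compared between genes. That scale was not total reads. The median over genes of the ratio to their geometric mean across libraries was already 1.01 in every library. Males had 13912569 to 20285911 reads on genes and females 14963924 to 19556707. The mitochondrial share of reads was 14.3% to 26.8%, with female 2 highest and the next library at 19.1%. Proximal tubule markers, chiefly *Slc34a1* and *Miox*, were abundant, with a sum of 2358 to 3816 FPKM in males against 2359 to 4186 FPKM for females (exact permutation test, two-sided, p = 0.992). Within that list *Cubn* was higher in females (log2 fold change 0.72, limma adjusted p = 0.0467) and *Aqp1* was lower by the exact permutation test alone (−0.56 on the log2 scale, two-sided p = 0.0317). The urothelial list, 4 genes with a sum of 0.0554 to 0.121 FPKM in males, reached 0.188 to 11.1 FPKM in females, with female 2 at the top. Each mean carries the SD of 5 rats, and fold changes are of females over males.

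Of the 48 members, 38 had a mean of at least 0.1 FPKM and entered the limma fit over 17631 genes on log2(FPKM + 0.1). The other 10 were *Abca12* and *Abca13*, which had no read in any library, and 8 members with reads but a mean below the filter. These 8 were *Abcd2*, *Abcg5*, *Abca17*, *Abca14*, *Abcc12*, *Abcb5*, *Abcg8* and *Abca6*, with means of 0.0037 to 0.0932 FPKM. *Abcb1b*, *Abcb4* and *Abcc1* were not analysed here, as no symbol of the table matched them.

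The family spanned more than 2 orders of magnitude, from 56.9 FPKM for *Abcg2* to 0.155 FPKM for *Abcg4* among the members fitted. *Abcg2*, the breast cancer resistance protein that exports urate and many drugs, and *Abcd3*, the peroxisomal carrier of long-chain and bile acid intermediates also known as PMP70, held 12.6% of the family's summed FPKM each. *Abcd3*, at 56.8 FPKM, could not be ranked against *Abcg2*, which was the higher of the pair in 2 of 10 libraries. Below them *Abca2*, a transporter of endosomes and lysosomes, stood at 37.7 FPKM and under *Abcd3* in 10 of 10 libraries. *Abca3*, which loads phospholipid into lamellar bodies in lung, and *Abcf3*, a ribosome-associated member, followed at 25.6 and 25.3 FPKM. Neighbours from *Abca3* down to *Abcb8* changed places between libraries, and the first 6 members together held 50.3% of the summed FPKM.

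**Figure D1:**
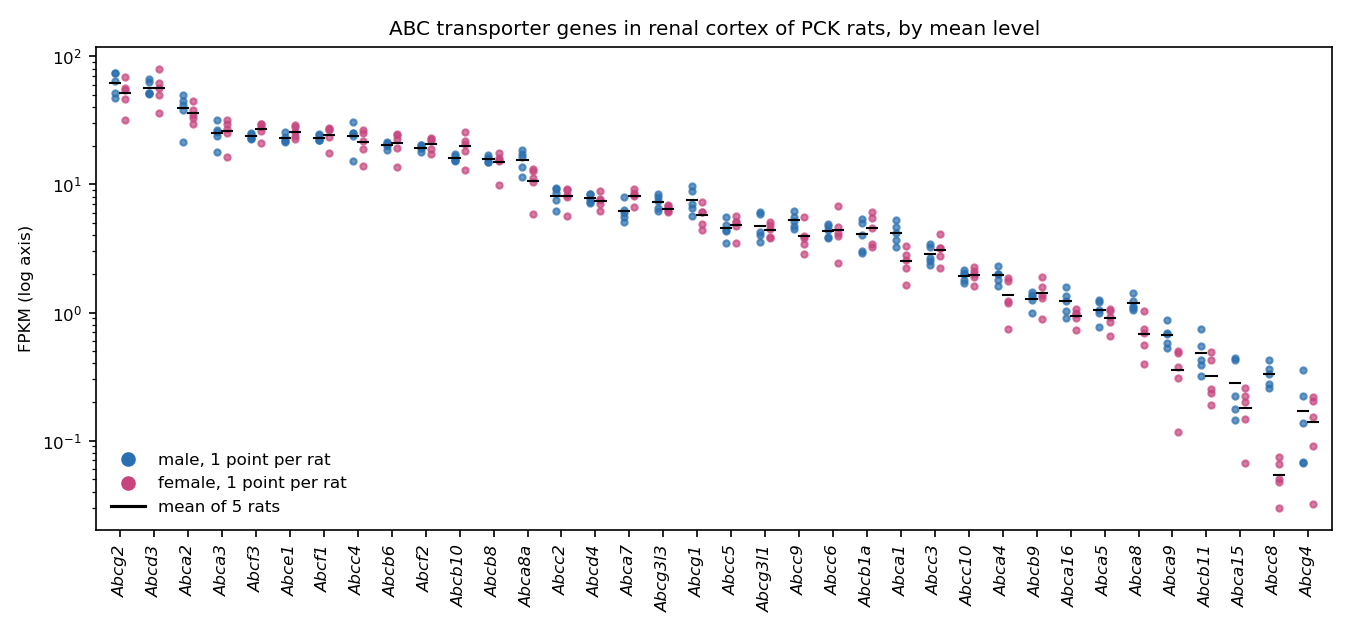
Level of 36 of the 38 fitted ABC members in each rat, as FPKM on a log axis, ordered by the mean over 10 libraries. Points are rats (blue, male; pink, female) and bars are means of 5 rats. The sexes overlap for 33 of those plotted and separate for *Abca8*, *Abca9* and *Abcc8*, toward the low end.

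In *Abcg2* the males were at 47.5, 74.6, 63.8, 73.4 and 51.3 FPKM (rats 1 to 5) and the females at 46.7, 31.8, 54.3, 69.3 and 56.7 FPKM. The ranges overlapped over most of their length, and the means of 62.1 ± 12.4 and 51.8 ± 13.8 FPKM differed by less than the rats did among themselves (p = 0.262, exact permutation test, two-sided). *Abcd3* was at 51.8, 63.2, 66.4, 50.6 and 51.7 FPKM in males and at 50.2, 35.8, 57.0, 79.6 and 61.9 FPKM in females, so that both extremes were female (exact permutation test, two-sided, p = 0.968). *Abca2* was at 44.5, 38.2, 50.2, 41.9 and 21.5 FPKM in males and at 32.9, 29.7, 38.1, 44.8 and 34.9 FPKM in females. Its lowest value was male 5, and the sexes did not separate (exact permutation test, two-sided, p = 0.571). *Abca3* was at 25.6, 24.0, 31.9, 26.8 and 18.0 FPKM in males and at 25.2, 16.4, 29.6, 31.7 and 27.1 FPKM in females. The lowest value was female 2 and the highest male 3, and the ranges overlapped over most of their length (exact permutation test, two-sided, p = 0.849). *Abcf3* was at 22.6, 23.1, 23.1, 24.7 and 25.0 FPKM in males and at 26.2, 21.2, 28.0, 29.5 and 29.7 FPKM in females. Here 4 of 5 females lay above every male, female 2 lay below them all, and the difference missed the threshold (exact permutation test, two-sided, p = 0.103).

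Across the family, *Abcc8* was the 1 member that passed the adjusted test, and it was lower in females, with a level in females below the filter of 0.1 FPKM. A member was called where limma's p, adjusted after Benjamini and Hochberg across the 17631 genes, was 0.05 or less. By this rule 0 of 38 fitted members were higher in females, against 1.26% of all genes, and 1 was lower, against 1.14%. With a log2 fold change of at least 1 asked for as well, the study's thresholds, the counts were again 0 and 1, against 0.618% and 0.698%. Without adjustment, limma gave a p under 0.05 for 9 members and for 2775 genes in all.

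The exact permutation test of single genes, two-sided and not adjusted, passed 1 member higher in females (*Abca7*), against 7.45% of all genes. It passed 6 lower in females (*Abca1*, *Abca8*, *Abca8a*, *Abca9*, *Abcc8* and *Abcc9*), 15.8% of the 38, against 7.38%. With libraries scaled by total reads the counts were 0 higher, against 4.47% of all genes, and 9 lower, against 9.89%. Ranges did not overlap between the sexes for 3 members lower in females (*Abca8*, *Abca9* and *Abcc8*), 7.89%, against 2.6% of all genes, and for 0 members higher in females, against 2.5%. *Abcc8* entered the fit only through its level in males, so such counts over the fitted members are a description. The median log2 fold change was −0.07 over the 38 members and −0.01 over all genes, and 23 of 38 members lay below 0, as did 9032 of 17631 genes. The members' median turned to 0.02 without male 3 and to 0.01 without female 2, with 18 of 38 below 0 in each case. With libraries scaled by total reads it was −0.14, with 27 below 0, against −0.08 for all genes.

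**Figure D2:**
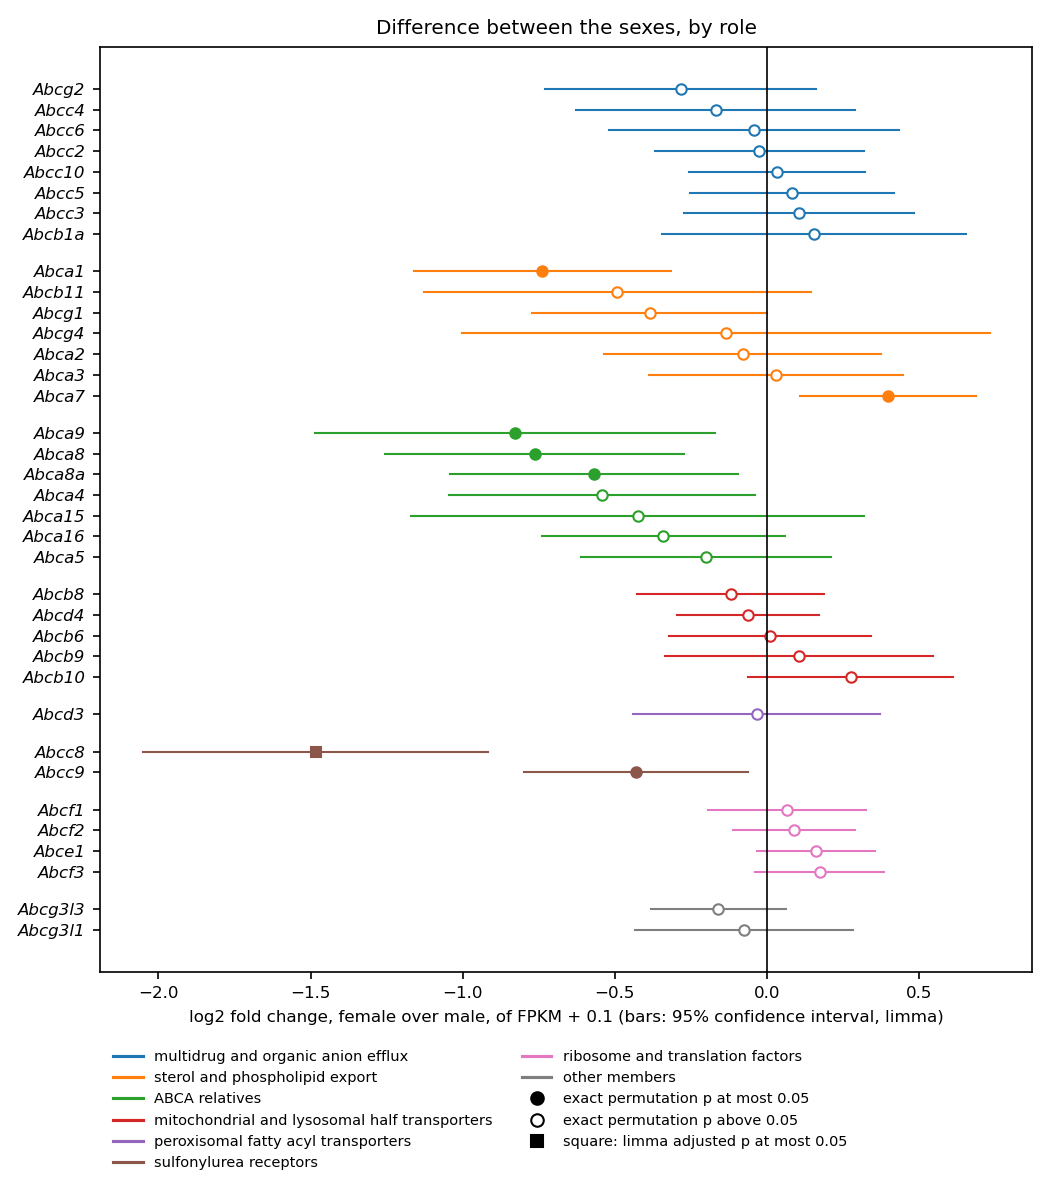
Female over male log2 fold change of FPKM + 0.1 for 36 of the 38 fitted members, grouped by role and sorted within each group, with 95% confidence intervals from limma. Filled circles passed the exact permutation test at 0.05 without adjustment and the square, *Abcc8*, also passed the limma adjusted test. All 7 members of the ABCA relatives lie left of 0.

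The member with the largest log2 fold change was a sulfonylurea receptor. *Abcc8* (ENSRNOG00000021130, chromosome 1, 102110708 to 102191287 on the minus strand of Rnor_6.0) encodes SUR1, the regulatory subunit of the ATP-sensitive potassium channel of pancreatic beta cells and neurons. It was at 0.259, 0.329, 0.278, 0.430 and 0.365 FPKM in males and at 0.0502, 0.0299, 0.0749, 0.0476 and 0.0661 FPKM in females. Every male was well above every female. The means were 0.332 ± 0.0687 and 0.0537 ± 0.0175 FPKM, a male over female ratio of 6.18. These low values stand for 19 to 42 reads in each male and 2 to 6 in each female, or 135 and 21 reads in all, so the ratio is imprecise.

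The log2 fold change of *Abcc8* was −1.48 (SE 0.26, limma adjusted p = 0.0117, exact permutation test, two-sided, p = 0.00794, the smallest that 5 rats against 5 allow). It passed the filter only through its level in males, and with no filter its limma adjusted p was 0.00241. The pseudocount of 0.1 is close to the levels themselves, so the fold change on this scale understates the ratio of the means. *Abcc8* kept an adjusted p of 0.0217 to 0.0420 when each library was left out in turn. A filter at a mean of 1 FPKM removes it from the test, and with a pseudocount of 1 its log2 fold change of −0.34 passed the adjusted p (0.0227) and not the fold threshold.

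*Abcc9* (chromosome 4, 176805431 to 176922424, minus strand) encodes SUR2, the receptor of smooth muscle, cardiac muscle and pericytes. It was the more abundant receptor in 10 of 10 libraries, by 13.0-fold to 19.9-fold in males. No fold is given for single females, with their few reads of *Abcc8*. Males were at 5.15, 6.22, 4.45, 5.58 and 4.74 FPKM and females at 3.96, 5.56, 3.42, 2.86 and 3.80 FPKM. Females 1, 3, 4 and 5 lay below every male and female 2 lay among them, at a log2 fold change of −0.43 (SE 0.17, limma adjusted p = 0.236, exact permutation test, two-sided, p = 0.0476). The exact p rose above 0.05 when any 1 of 7 libraries was left out (males 1, 2 and 4 and females 1, 3, 4 and 5), and reached 0.103 without female 4.

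Each receptor gene lies beside the gene of its usual pore subunit. *Kcnj11* (Kir6.2) is 4580 bp from *Abcc8*, and *Kcnj8* (Kir6.1) is 16126 bp from *Abcc9*. *Kcnj11* was at 0.128, 0.124, 0.183, 0.240 and 0.198 FPKM in males and at 0.177, 0.0936, 0.0977, 0.0932 and 0.104 FPKM in females. Female 1 lay among the males, and the difference, −0.36 on the log2 scale, missed both tests (limma adjusted p = 0.578, exact permutation test, two-sided, p = 0.0556). With 6 to 15 reads of *Kcnj11* in each male and 4 to 9 in each female, a moderate difference could be missed. *Kcnj8* was at 8.54, 7.77, 6.81, 4.55 and 7.32 FPKM in males and at 4.84, 5.76, 5.86, 4.21 and 5.35 FPKM in females. It was lower in females by the exact test alone (−0.40 on the log2 scale, limma adjusted p = 0.266, exact permutation test, two-sided, p = 0.0476), with male 4 below 4 of the females.

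**Figure D3:**
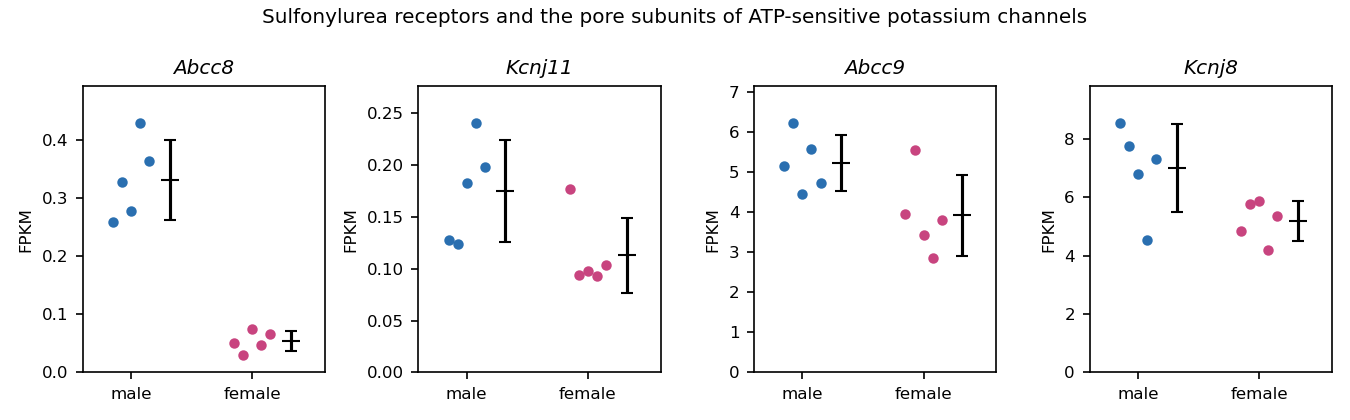
FPKM of the 2 sulfonylurea receptors and the 2 pore genes of ATP-sensitive potassium channels. Points are rats and bars are mean ± SD of 5 rats, each panel on its own scale from 0. The sexes separate for *Abcc8* and overlap for the other 3 genes.

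Among the relatives of *Abca1* in the A subfamily, 7 of 12 members were fitted, all 7 had a log2 fold change below 0, and the median was −0.54. None passed the adjusted test and 3 passed the exact test, all lower in females, against 7.38% of all genes, and all from 1 cluster. That cluster on chromosome 10 holds *Abca8*, *Abca8a*, *Abca9*, *Abca6* and *Abca5* in a row, from 98237141 to 98644938 (407.8 kb), all on the minus strand and with no other gene of the table between them. These proteins are thought to handle lipids, and their substrates are less well known than those of *Abca1*. Their sequences are alike, so reads could have been split between neighbours, which makes single values uncertain.

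*Abca8a* was the most abundant of the 5, above *Abca8* by 9.28-fold to 20.1-fold within a library. It was at 18.7, 16.4, 13.6, 11.5 and 17.4 FPKM in males and at 10.4, 13.1, 12.8, 5.89 and 11.2 FPKM in females. The ranges overlapped, with female 4 apart at the bottom (log2 fold change −0.57, SE 0.22, limma adjusted p = 0.224, exact permutation test, two-sided, p = 0.0317). Leaving out any 1 of 6 libraries (males 1, 2 and 5 and females 1, 4 and 5) raised the exact p above 0.05, to at most 0.0714.

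*Abca8* was at 1.08, 1.13, 1.06, 1.24 and 1.43 FPKM in males and at 0.686, 0.744, 1.02, 0.395 and 0.555 FPKM in females. The highest female, female 3, came close to the lowest male without reaching it (log2 fold change −0.76, SE 0.22, limma adjusted p = 0.113, exact permutation test, two-sided, p = 0.00794). *Abca9* was at 0.877, 0.574, 0.526, 0.697 and 0.684 FPKM in males and at 0.306, 0.481, 0.377, 0.116 and 0.503 FPKM in females. Here too no female reached a male (log2 fold change −0.83, SE 0.30, limma adjusted p = 0.200, exact permutation test, two-sided, p = 0.00794), with 37 to 70 reads in each male and 10 to 39 in each female.

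At the far end of the cluster, *Abca5*, an endosomal and lysosomal member, was at 1.05 ± 0.193 FPKM in males against 0.904 ± 0.163 in females, with ranges that overlapped (log2 fold change −0.20, exact permutation test, two-sided, p = 0.222). *Abca6* had 3 reads in male 5 and none in the other libraries. Outside the cluster, *Abca4*, the retinoid flippase of photoreceptors, was at 1.95 ± 0.269 and 1.36 ± 0.461 FPKM (log2 fold change −0.54, exact permutation test, two-sided, p = 0.0556). *Abca16* and *Abca15*, whose substrates are little known, had log2 fold changes of −0.34 and −0.43 with exact permutation p of 0.0794 and 0.246, two-sided.

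**Figure D4:**
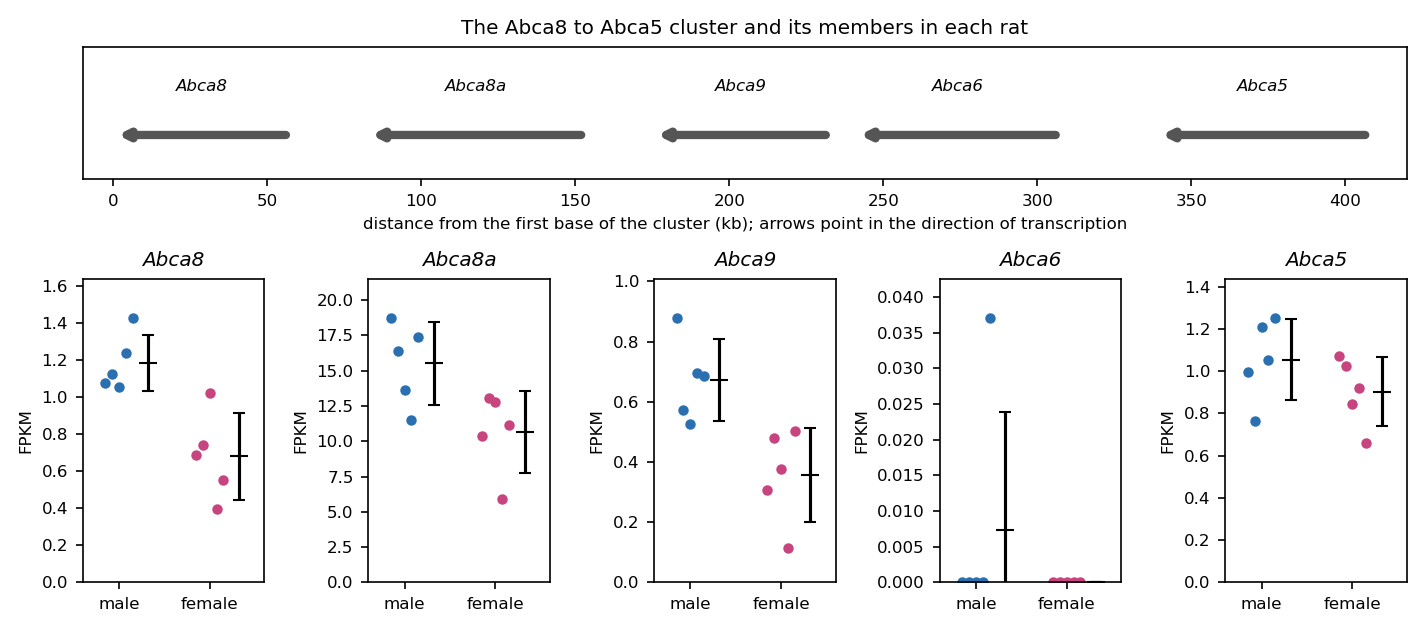
Map of the *Abca8* to *Abca5* cluster, as distance in kb from its first base with arrows in the direction of transcription, over the FPKM of each member in each rat (bars, mean ± SD of 5 rats; the lower bar of *Abca6* is cut off at 0). The sexes separate for *Abca8* and *Abca9*, overlap for *Abca8a* and *Abca5*, and *Abca6* is at 0 in 9 of 10 rats.

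*Abca1* and its neighbours in function export sterols and phospholipids. In this group 7 of 9 members were fitted, 5 of them had a log2 fold change below 0, the median was −0.14, and none passed the adjusted test. *Abca1* (chromosome 5, 69857771 to 69983015, minus strand), the exporter of cholesterol to apolipoprotein A-I, was at 4.66, 3.25, 3.68, 4.16 and 5.26 FPKM in males and at 3.31, 2.56, 2.81, 1.65 and 2.21 FPKM in females. Only female 1 and male 2 crossed, and by little. The log2 fold change was −0.74 (SE 0.19, limma adjusted p = 0.0804, exact permutation test, two-sided, p = 0.0159), and the exact p stayed at 0.0238 or below without any 1 library. An unnamed gene on the other strand overlaps *Abca1*, and use of strand in the counting is not stated.

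*Abca7*, a phospholipid flippase related to *Abca1*, was the 1 fitted member that was higher in females by the exact test. Males were at 5.94, 5.09, 5.57, 8.01 and 6.33 FPKM and females at 8.14, 6.61, 8.51, 9.17 and 8.20 FPKM. Male 4 reached the females and female 2 fell among the males (log2 fold change 0.40, SE 0.13, limma adjusted p = 0.163, exact permutation test, two-sided, p = 0.0159). *Abca7* overlaps *Palm* on the same strand, so some of its reads could belong to that gene, and with libraries scaled by total reads it no longer passed the exact test.

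*Abcg1*, which loads cholesterol onto lipoproteins, was at 7.58 ± 1.70 and 5.75 ± 1.12 FPKM in the 2 sexes, at −0.39 on the log2 scale (exact permutation test, two-sided, p = 0.0873). *Abcb11*, the bile salt export pump of liver, was at 0.386, 0.428, 0.551, 0.318 and 0.743 FPKM in males and at 0.237, 0.254, 0.188, 0.494 and 0.424 FPKM in females. The ranges overlapped (log2 fold change −0.49, 95% confidence interval −1.13 to 0.14, exact permutation test, two-sided, p = 0.119). *Abcg4* had 1 to 10 reads per library, and the sterol pair *Abcg5* and *Abcg8* of liver and gut had at most 8 and 2 reads.

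The 250 bases upstream of the *Abca1*, *Abca8* and *Abca9* starts are shown because these 3 genes were lower in females by the exact test and have a start in the promoter table. *Abcc9* has one too and is not shown, as its exact p rose above 0.05 without single libraries. They come from RefSeq on build GRCr8, another build than that of the FPKM table, and 38 of the 48 members have an entry there. Capitals mark an E-box, written CACGTG, and the promoter box that places the start, written TATAAA. Both strands were searched, and no match overlaps another.
*Abca1*, chr5:72596474-72596723, minus strand: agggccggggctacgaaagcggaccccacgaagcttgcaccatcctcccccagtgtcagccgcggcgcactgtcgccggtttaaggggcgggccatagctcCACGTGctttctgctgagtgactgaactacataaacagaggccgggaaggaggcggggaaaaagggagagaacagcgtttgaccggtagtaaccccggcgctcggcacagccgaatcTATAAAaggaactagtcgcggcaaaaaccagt
*Abca8*, chr10:95476846-95477095, minus strand: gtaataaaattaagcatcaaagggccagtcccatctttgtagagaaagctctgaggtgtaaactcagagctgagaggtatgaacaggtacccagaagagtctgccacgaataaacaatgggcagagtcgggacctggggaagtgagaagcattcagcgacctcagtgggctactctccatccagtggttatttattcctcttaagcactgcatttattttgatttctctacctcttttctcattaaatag
*Abca9*, chr10:95638707-95638956, minus strand, the outermost of 4 listed starts: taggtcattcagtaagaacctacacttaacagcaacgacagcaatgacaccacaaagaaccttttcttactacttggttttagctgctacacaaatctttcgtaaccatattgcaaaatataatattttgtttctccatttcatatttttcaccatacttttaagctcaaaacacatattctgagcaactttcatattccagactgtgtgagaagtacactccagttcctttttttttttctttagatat

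The *Abca1* window holds both motifs, with TATAAA beginning 32 bases before the start, and the other windows shown hold none. Of the 38 matched members, 3 hold CACGTG and 6 hold TATAAA at 1 or more of their starts (*Abca9* at another start than the one shown). The E-box occurs in 5.593% of 33469 promoter windows and TATAAA in 12.93%. The windows also differ in base composition, with a GC content of 59.6% for *Abca1*, 43.6% for *Abca8* and 32.8% for *Abca9*, against a median of 51.2% over all windows. Such matches are letters in a window and were not tested as sites.

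The multidrug and organic anion efflux group, the one that carries drugs and conjugates out of tubule cells, had no fitted member past either test. Of 9 members 8 were fitted, 4 lay above 0 and 4 below, and the median log2 fold change was 0.00. *Abcc4* (MRP4), the apical exporter of cyclic nucleotides and urate, was at 25.3, 25.1, 30.5, 24.0 and 15.1 FPKM in males and at 19.0, 14.0, 25.2, 26.6 and 21.9 FPKM in females. The ranges overlapped over most of their length (log2 fold change −0.17, 95% confidence interval −0.63 to 0.29, exact permutation test, two-sided, p = 0.476). *Abcc2* (MRP2), the apical exporter of conjugated anions, was at 7.55, 8.54, 9.23, 9.33 and 6.19 FPKM in males and at 9.23, 5.63, 8.33, 8.01 and 9.07 FPKM in females. It was the lower of the pair in 10 of 10 libraries and did not differ between the sexes beyond the spread (log2 fold change −0.03, 95% confidence interval −0.37 to 0.32, exact permutation test, two-sided, p = 0.865).

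*Abcb1a*, a P-glycoprotein gene, was at 3.03, 2.94, 3.99, 5.02 and 5.40 FPKM in males and at 6.09, 3.41, 3.22, 5.48 and 4.54 FPKM in females. The ranges overlapped (log2 fold change 0.15, 95% confidence interval −0.34 to 0.65, exact permutation test, two-sided, p = 0.548). Rats have a close copy, *Abcb1b*, so the reads of *Abcb1a* are uncertain. The length listed for *Abcb1a*, 14132 bases, is the longest among the members, and FPKM is scaled by length. Whether that length takes in *Abcb1b* or *Abcb4*, which have no entry of their own, was not tested. The level of *Abcb1a* against other genes is therefore uncertain as well. By the values as given, *Abcg2* stood above *Abcb1a* by 7.67-fold to 25.4-fold within a library, a range that carries this uncertainty. The basolateral exporters *Abcc3* and *Abcc5*, with *Abcc6* and *Abcc10*, had means of 1.95 to 4.67 FPKM. *Abcc12*, of unknown substrate, had no read in any male and 1, 2, 3, 1 and 0 reads in females (exact permutation test, two-sided, p = 0.0476). Both sexes were at or under the floor of 3 reads per library, so no fold is given.

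The B- and D-subfamily transporters of mitochondria and lysosomes had small differences. All 6 were fitted, none passed either test, and log2 fold changes ran from −0.12 for *Abcb8* to 0.27 for *Abcb10*. *Abcb10*, of the haem pathway, was at 16.0 ± 0.835 and 19.9 ± 4.68 FPKM (exact permutation test, two-sided, p = 0.111). Males differed little from one another in *Abcb10*, with a coefficient of variation of 5.20%, against 23.6% in females. Without female 2, the lowest of the 5, *Abcb10* passed the adjusted test as higher in females.

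In the peroxisomal group, *Abcd3* is described above, and the related *Abcd2* had 5 to 13 reads per library. The 4 ribosome and translation factors (*Abce1*, *Abcf1*, *Abcf2* and *Abcf3*) all had a log2 fold change above 0, from 0.06 to 0.17 with a median of 0.12, and none passed either test. *Abcf1* and *Abcf3* passed the exact test as higher in females without female 2, and *Abce1* did without female 3. The remaining members, *Abcg3l1* and *Abcg3l3*, are alike by symbol and lie on chromosome 14, so reads could have been split between them, at −0.08 and −0.16 on the log2 scale.

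The members were also read by level. The 7 fitted members with a mean under 1 FPKM all had a log2 fold change below 0, with a median of −0.49. Of these, *Abca5*, *Abca8*, *Abca9* and *Abca15* were already counted among the ABCA relatives. The others were *Abcb11*, *Abcg4* and *Abcc8*, which passed the filter only through males. The share of all genes below 0 at this level is not given here, so the count is a description. The 14 members at 10 FPKM or more had 6 below 0 and a median of 0.02. *Abca8a* was the 1 among them to pass the exact test, as lower in females, against 7.38% of all genes. The median coefficient of variation over the 38 members was 16.7% in males and 22.4% in females, and over all genes 16.3% and 20.4%.

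Several members that were lower in females are also expressed in cells of the interstitium and vessel wall, so marker lists of these cells were read beside them. In bulk cortex, fewer cells of a type and less RNA per cell cannot be told apart. The fibroblast list (*Pdgfra*, *Col1a1*, *Col1a2*, *Dcn* and *Lum*) summed to 176 to 250 FPKM in males against 61.1 to 187 in females (exact permutation test, two-sided, p = 0.0238). All 5 genes had a log2 fold change below 0, with *Col1a2* at −1.42. In the exact test 3 passed as lower, against 7.38% of all genes, and none passed the adjusted test. *Lum* was near 0 (−0.09, exact permutation test, two-sided, p = 0.976), and its mean FPKM was higher in females. The smooth muscle and pericyte list summed to 169 to 215 FPKM in males against 74.0 to 263 in females (exact permutation test, two-sided, p = 0.286). In that list 4 of 5 genes had a log2 fold change below 0, and *Pdgfrb*, a pericyte and mesenchymal receptor, passed the exact test alone (−0.57 on the log2 scale, exact permutation test, two-sided, p = 0.0238). The endothelium list, with 4 of 5 genes above 0, summed to 79.3 to 101 FPKM in males against 78.4 to 129 in females (exact permutation test, two-sided, p = 0.405), and the macrophage and leukocyte list, with all 5 genes below 0, to 88.4 to 168 and 41.3 to 107 FPKM (exact permutation test, two-sided, p = 0.167).

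Female 4 was lowest in the fibroblast, smooth muscle and macrophage lists and lowest in *Abca1*, *Abca8*, *Abca8a*, *Abca9* and *Abcc9*. Without female 4, *Abca8a* and *Abcc9* had an exact permutation p of 0.0635 and 0.103, and *Abca1*, *Abca8* and *Abca9* kept 0.0238, 0.00794 and 0.0159, all two-sided. With any 1 library left out, the log2 fold change was −0.67 to −0.37 for *Abca8a* and −0.56 to −0.33 for *Abcc9*. The intercalated cell list went the other way, 104 to 171 FPKM in males against 176 to 276 in females (exact permutation test, two-sided, p = 0.00794). All fitted genes of the thick ascending limb, distal convoluted tubule, collecting duct principal and podocyte lists also had a log2 fold change above 0. The sums of those lists missed the exact permutation test, two-sided (p = 0.0556, 0.0556, 0.127 and 0.310). The part of these cells in the ABC differences was not tested.

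**Figure D5:**
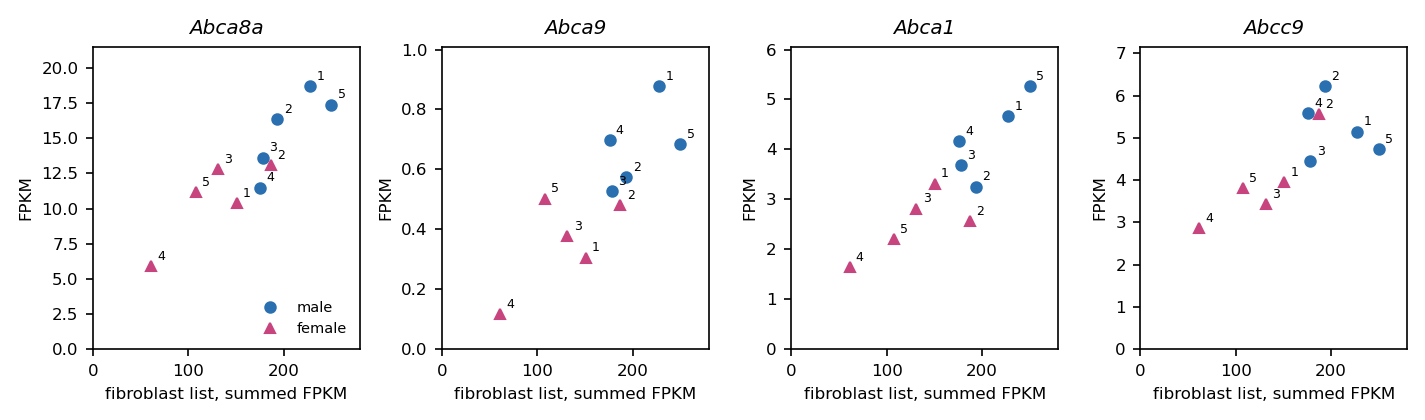
FPKM of 4 ABC members against the summed FPKM of the 5-gene fibroblast list in each rat (circles, male; triangles, female; numbers are rat numbers). Female 4 is lowest on both axes in every panel, and males lie to the right of 4 of the 5 females.

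Regulators and partners of the family were read from a list of 43 genes. They have 45 rows, since *Tap2* and *Pex19* are each listed under a pair of identifiers, and 44 rows were fitted, with *Npc1l1* below the filter. In this list 1 gene passed the adjusted test as higher in females, against 1.26% of all genes, and 1 as lower, against 1.14%, with a median log2 fold change of −0.04. The lower one was *Esr1*, the estrogen receptor alpha, at 4.75, 5.58, 5.29, 6.88 and 5.03 FPKM in males and 2.27, 1.66, 1.95, 3.72 and 2.43 FPKM in females. No female reached a male (log2 fold change −1.20, SE 0.20, limma adjusted p = 0.00793). The higher one was *Ahr*, the aryl hydrocarbon receptor that induces *Abcg2* in several tissues, at 5.86, 5.90, 5.85, 5.78 and 4.90 FPKM in males and 7.66, 6.86, 6.84, 8.45 and 8.59 FPKM in females. The ranges were apart (log2 fold change 0.43, SE 0.10), at a limma adjusted p of 0.0499 that passed the threshold without 1 of 10 libraries only, female 2, and not with a pseudocount of 1 or 0.01 or with libraries scaled by total reads.

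The liver X receptors that induce *Abca1* and *Abcg1*, *Nr1h3* and *Nr1h2*, were at 35.8 ± 3.30 and 52.6 ± 3.29 FPKM in males, against 35.0 ± 5.46 and 56.0 ± 4.16 FPKM for females, with no difference beyond the spread (exact permutation test, two-sided, p = 0.778 and 0.198). *Apoe*, which accepts the exported lipid, was at 801 ± 77.9 and 582 ± 43.9 FPKM with ranges apart (log2 fold change −0.46, limma adjusted p = 0.0636, exact permutation test, two-sided, p = 0.00794), and it passed the adjusted test with libraries scaled by total reads or with a filter at 1 FPKM, among other settings. The ABC superfamily genes outside the symbol rule (*Tap1*, *Tap2* and *Cftr*), listed with *Tapbp*, a peptide-loading chaperone that is no ABC protein, had 4 of 5 rows below 0, none past the adjusted test and 1, *Cftr*, past the exact test.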

How the data were processed

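Poly-A selected RNA of 10 PCK rats, 1 library each, was sequenced on Illumina. Per the paper's methods, reads were mapped to Rnor_6.0 with HISAT2, and the authors deposited 1 table of FPKM per gene. The submitters' processing notes also name fastp, HISAT2 2.0.5, StringTie 1.3.3b and featureCounts 1.5.0-p3. Use of strand is not given in the sources used here. Groups follow the sex in the labels. Members and all lists were chosen with earlier results of these data known.

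On log2(FPKM + 0.1), limma 3.58.1 (lmFit, eBayes with trend, R 4.3.3) was fitted without covariates to genes averaging 0.1 FPKM or more, and p-values were adjusted after Benjamini and Hochberg over them. The exact permutation test enumerated the 252 splits for a gene's difference in mean FPKM, two-sided (Python 3.11.15, scipy 1.17.1). FPKM times length over the value of 1 read came out whole within 0.01 for 100% of values, which gave reads per gene. Some genes are not reported by name here. Floors cover counting error only. P-values treat rats as independent, whatever their litter.

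Values in every library are given for members past either test, for the 5 highest and for *Abcb1a*, *Abcb11*, *Abcc2*, *Abcc4* and *Abcc9*. The fit was tested on simulated data. Alternatives were other pseudocounts, filters, scalings and variance models, limma-voom, a replicate block, leaving out each library and, added after the data were seen, scaling by total reads. Scaling by the median ratio was among them and could change little, as the values already had that scale.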

Additional observations from a re-analysis of the deposited data

How the results depend on the processing

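The number of members lower in females by adjusted p, 1 (*Abcc8*), became 0 with a filter at a mean of 1 FPKM, which removes *Abcc8* from the test, 0 with the replicate number as a block (adjusted p of *Abcc8* 0.0864), and 2 with limma-voom, which added *Abca1* (adjusted p = 0.0440). With a fold of at least 1 as well it became 0 with a pseudocount of 1 (*Abcc8* at −0.34), with the filter at 1 FPKM and with the block. The replicate numbers are not known to pair rats, since same-numbered rats correlated at −0.0975 to 0.0708 and 1 of 5 numbers matched best with itself, and the block took the calls over all genes from 424 to 231. Leaving out 1 library gave 1 for both counts lower, and 0 to 1 higher (*Abcb10*, without female 2). The 7 members past the exact test became 4 with the filter at 1 FPKM and 0 with a sign-flip test of the replicate block, which cannot go below 0.0625. Scaling by total reads gave 9, all lower in females (9.89% of all genes were), with *Abca4*, *Abca16* and *Abcg3l3* added and *Abca7* lost. Leaving out 1 library gave 5 to 10. The 2 partner genes became 1 (*Esr1*) with a pseudocount of 1 or 0.01, no filter or the block, and 1 to 3 without 1 library. *Apoe* joined them with the filter at 1 FPKM, quantile normalization, robust eBayes or limma-voom, and took the place of *Ahr* with eBayes without trend or scaling by total reads.

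Members near 0 changed sign with no call. Leaving out 1 library put *Abcd3* (−0.03) at −0.17 to 0.12, *Abca2* (−0.08) at −0.283 to 0.0222, *Abca3* (0.03) at −0.0863 to 0.186 and *Abcc2* (−0.03) at −0.12 to 0.0965. It moved *Abcc4* (−0.17) to −0.327 to −0.0268 and *Abcb1a* (0.15) to 0.0393 to 0.264 with no change of sign. *Abca3* also went to −0.022 with quantile normalization and −0.0458 with total reads. Scaling by total reads changed the split of calls over all genes from 223 higher and 201 lower to 170 and 235, and moved the median of all genes to −0.08. *Abcc8* has 2 to 6 reads per female, and members under 10 reads cannot show a moderate difference at this depth.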
